A study of Danio rerio with 4 samples.

Results

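Radial glia of the adult zebrafish telencephalon were compared between fish with a stab lesion and uninjured fish, neither of which received metronidazole (MTZ), so that microglia were left intact. Single-cell RNA-seq (10x Chromium 3', v3) gave 1 library per condition, the injured library at 3 days after the lesion. A cell entered the comparison when it had at least 300 detected genes, at most 25% mitochondrial UMIs and at least 0.5% of its UMIs from fabp7a, the brain fatty acid binding protein of radial glia. This left 683 of 731 filtered cells (93.4%) in the uninjured library and 960 of 1078 (89.1%) in the injured library, together 1643 of the 4783 filtered cells of the 4 libraries. Both groups were adults of 3 to 7 months, strain Tg[GFAP:dTomato]nns17Tg, with 7 telencephalons pooled per library, and the cells were sorted for dTomato, which the GFAP promoter drives. Groups were taken from the library titles, because the treatment label reads stab lesioned for all 4 libraries. The other pair of libraries, uninjured and injured with MTZ, was made from fish with the additional transgene Tg[mpeg1:NTR-EYFP]w202, in which the mpeg1 promoter drives nitroreductase in microglia and macrophages.

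With 1 library per group there was no replicate check, no test between conditions was possible, and every interval below covers counting error only. Cells are not replicates of a condition, and pool, library and lesion cannot be told apart. The gated cells held 2721196 UMIs in the uninjured library and 4501959 in the injured library, with medians of 3383 and 3928 UMIs and of 1408 and 1437 genes per cell. Median mitochondrial shares were 1.60% and 1.89%. The lowest fabp7a share inside the gate was 0.503% in the uninjured and 0.502% in the injured library, and the highest outside it was 0.468% and 0.493%. Radial glia markers, 3 or more of them, were detected in 680 of the 683 uninjured and in all 960 injured cells. That list holds fabp7a, which the gate requires in every cell, and gfap, whose promoter drove the sort. The gating gene fabp7a stood at 26309 CPM (counts scaled to the library total) in uninjured and 24409 CPM in injured cells. The other marker, gfap, stood at 563 and 596 CPM, and the glial calcium-binding protein s100b at 4329 and 4339.9 CPM. The microglial marker list of 18 genes summed to 8.08 CPM in uninjured and 104 CPM in injured gated cells. Of the 467 UMIs of this list in injured cells, cd74a held 146 and cd74b 265. Of the 22 in uninjured cells they held 1 and 4. At least 3 markers of the list were carried by 0 uninjured and 7 injured gated cells. Of its genes 10 and 8 were at 0, among them mpeg1.1, csf1ra and lcp1 in both libraries. Among filtered cells with fabp7a under 0.1% of UMIs, 1 uninjured and 6 injured cells carried at least 3 microglial markers. Cells with at least 3 markers of ciliated cells made up 4.25% of uninjured and 10.0% of injured gated cells. Markers per cell were counted on all UMIs of a cell, of which injured cells had the higher median. Summed markers of immature neurons stood at 389 and 670 CPM. The part of ciliated cells and immature neurons in the results was not tested. Cells carrying 3 or more markers of neurons, microglia or ciliated cells were left out in an alternative. There 16 of 141 followed genes with a ratio were no longer past 2-fold. Those named below include b2m, jak1, vim, msna, cnn2, mcm5, fthl28, cx43, draxin, efnb2a, etv5b and per1a. For draxin the log2 ratio was then −0.89 in place of −1.52, for efnb2a −0.94, for per1a −0.98, for etv5b −0.97, for cx43 −0.95 and for mcm5 0.91. The 2 libraries shared 6 cell barcode strings.

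Radial glia are the neural stem cells of the adult zebrafish forebrain. They line the ventricle, are mostly quiescent, and after a stab lesion they can re-enter the cell cycle and give rise to neurons. Unlike mammalian astrocytes they form no lasting scar, and inflammatory signals are known to take part in their activation. Microglia are the brain's resident macrophages, a source of cytokines after injury.

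UMIs were summed per gene over the gated cells of each library, scaled to CPM, and a gene was counted as measured with at least 50 UMIs over both libraries. Of 9112 measured genes, 459 (5.04%) were at least 2-fold higher in injured radial glia and 437 (4.8%) at least 2-fold lower. These shares are the background against which each gene group below is read. Beyond 4-fold there were 161 higher and 31 lower genes. The median log2 ratio over all measured genes was −0.17, so a group's median is also given relative to that of all genes. Scaling by TMM factors moved the median to 0.02 and the split of calls from 459 and 437 to 635 higher and 243 lower, that is from 51.2% to 72.3% higher. The share of UMIs in cytosolic ribosomal protein genes moved with the groups, at 8.41% in uninjured and 14.9% in injured cells. With those genes taken out of the CPM total, 550 genes were higher and 308 lower. A summed count cannot by itself tell more positive cells from more RNA per cell, so shares of cells with a UMI, each cell thinned to 1000 UMIs, stand beside it.

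**Figure D1:**
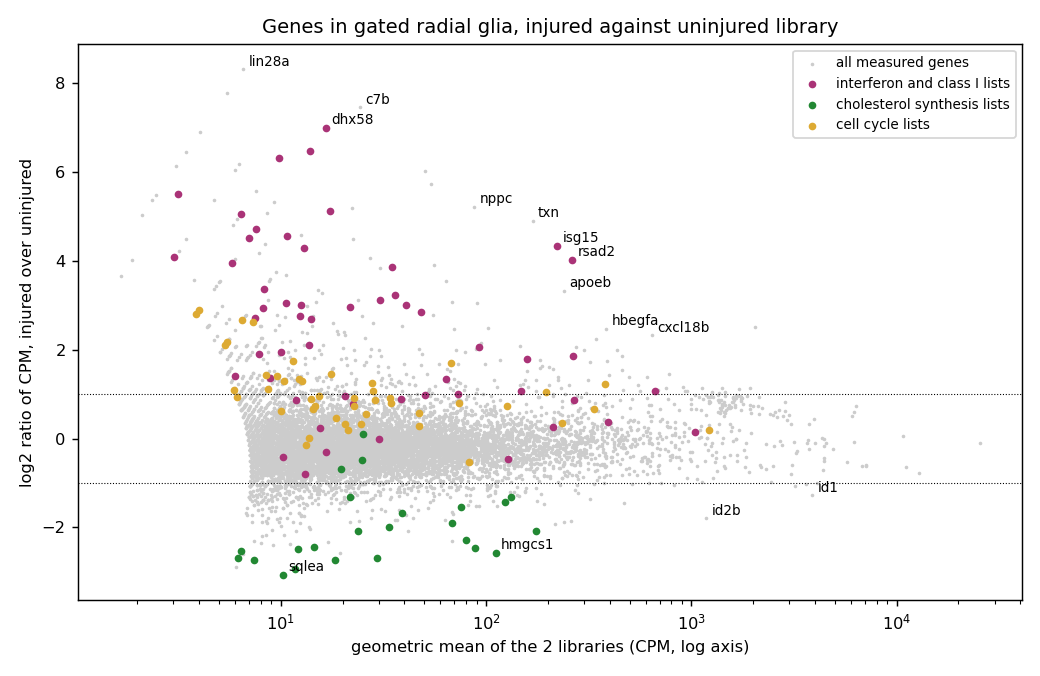
Each point is 1 measured gene in gated radial glia, with its geometric mean CPM over the uninjured and injured libraries on a log x axis and its log2 CPM ratio (injured over uninjured) on the y axis. Dotted lines mark 2-fold either way, and coloured points are the interferon and class I genes, which lie mostly above the upper line, the cholesterol synthesis enzymes, which lie mostly below the lower line, and the cell cycle genes.

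Interferon response genes were higher in injured radial glia. Among 15 measured sensors and signal carriers of the pathway, 10 rose at least 2-fold and 0 fell, and the median log2 ratio was 1.80, or 1.97 above that of all genes. The RNA helicase dhx58, a sensor of viral RNA of the RIG-I family, stood at 1.47 CPM (4 UMIs in 3 cells) in uninjured and 188 CPM (848 UMIs in 155 cells) in injured cells, a log2 ratio of 7.00 (95% counting interval 5.64 to 8.88). It is the gene of this list that changed most. Another sensor of this family, ifih1, rose from 5.51 to 35.5 CPM. The transcription factor gene stat2, which carries the signal, rose from 84.5 to 294 CPM. Interferon regulatory factors went the same way, irf7 with a log2 ratio of 3.13, irf8 from 14.3 to 116 CPM and irf1b from 45.2 to 189 CPM. Close to the 2-fold line were irf9 with a log2 ratio of 1.01 (0.73 to 1.29) and the receptor kinase jak1 with 1.07 (0.88 to 1.27). Without the fabp7a gate both fell short of it, at 0.88 each.

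Effector genes, whose products block viral replication, went further. Of 22 measured, 17 rose and 0 fell, with a median log2 ratio of 3.99, or 4.16 above that of all genes. The radical SAM enzyme rsad2 (viperin) stood at 65.0 CPM in uninjured and 1055 CPM in injured cells, a log2 ratio of 4.02 (3.80 to 4.24). The ubiquitin-like modifier isg15 went from 49.2 to 1000.2 CPM, a log2 ratio of 4.34, and from 2.31% to 24.8% of thinned cells. Neurons, here and below pooled over all 4 libraries, those of uninjured fish and with MTZ included, had 1.27%. For rsad2 the shares were 3.23% and 14.3%, with 0.637% of neurons. Counted at most once per cell, isg15 had a log2 ratio of 2.79 and rsad2 1.29. The Mx GTPase gene mxb rose from 2.94 to 103 CPM, and the helicase gene helz2 from 1.47 to 131 CPM. In the ifit family, ifit8 had 3 UMIs in uninjured cells and 397 in injured cells (log2 ratio 6.32, 4.76 to 8.61). Its relative ifit10 had 0 UMIs in uninjured cells and 226 in 87 injured cells, at least 45.5-fold higher against a floor of 3 counts. Members of the ifit family resemble each other in sequence, so reads can be split between them and single values are uncertain. Not every effector moved, since gbp3 had a log2 ratio of −0.40 and ifit11 had −0.30.

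The class I antigen presentation pathway, which loads peptides cut by the proteasome onto surface MHC molecules, followed. Of its 17 measured members 12 rose and 0 fell, with a median log2 ratio of 1.85. The summed level of the list went from 2399 to 3873 CPM, a fold of 1.61, so the sum changed less than most members. Genes of the immunoproteasome and its activator rose together, psmb8a from 4.41 to 35.5 CPM, psme1 from 18 to 129.9 CPM and psme2 from 7.72 to 60.6 CPM. The peptide transporter gene tap2a went from 3.67 to 30.7 CPM and the loading chaperone tapbp.2 from 1.47 to 33.5 CPM, log2 ratios of 3.06 and 4.51. These low-level genes had the larger ratios, whereas the abundant light chain b2m, at 459.7 and 964 CPM, had a log2 ratio of 1.07 (0.98 to 1.16). The heavy chain mhc1uba rose from 140.4 to 506 CPM. Not every heavy chain rose, since mhc1uka had a log2 ratio of −0.79. The mhc1 genes are related in sequence, so single values are uncertain. Without the cells that carried 3 or more markers of neurons, microglia or ciliated cells, b2m fell short of 2-fold, at 0.96. Together the interferon and class I lists had 39 of 54 measured genes higher and 0 lower, and their summed level went from 3270 to 8766 CPM.

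Of 7 MHC class II genes, looked at after their values were seen, 3 had UMIs mostly in injured cells. The invariant chain genes cd74a and cd74b, chaperones of class II molecules, had 1 and 4 UMIs in uninjured cells and 146 and 265 in injured cells. The class II gene mhc2a had 3 and 59. The other members stayed at 3 UMIs or fewer in either library, with 3 and 1 for mhc2b and 2 and 0 for mhc2bl. In the injured library cd74b was found in 89 cells, and 78 of these also had UMIs of 3 or more interferon genes before thinning, as did 600 of all 960 cells. For cd74a over 10% of the injured UMIs lay in 1 cell. The same genes mark microglia, and 92.2% of microglia or macrophage cells in the 4 libraries had a cd74a UMI. Those cells were chosen by a marker list that holds cd74a and cd74b, so that share is partly set by the choice. The microglial markers in the gated cells are given above. When cells with markers of other types were left out, cd74b kept a log2 ratio of 5.28, and cd74a had 4.01. The microglial list of that filter also holds both genes.

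The interferon genes were spread unevenly over injured radial glia. After thinning, 3.85% of uninjured cells (25 of 650, 2.50 to 5.63%) and 30.7% of injured cells (283 of 922, 27.7 to 33.8%) had UMIs of at least 3 interferon genes, against 1.91% of neurons. Without thinning the shares were 36.3% and 62.5%. At 10 or more such genes there were 0 uninjured cells, which allows a share of up to 0.462% (3 counts of the total), and 28 injured cells (3.04%). Without thinning 6 uninjured (0.878%) and 187 injured cells (19.5%) had that many. At the other end, 278 thinned injured cells (30.2%) had no UMI of any interferon gene, as did 374 uninjured cells (57.5%). Before thinning, 829 injured (86.4%) and 511 uninjured cells (74.8%) had at least 1 such gene. Thus thinned injured cells ranged from none of these genes to 10 or more. The 10% of injured cells with the most effector UMIs held 71.3% of all effector UMIs, and in uninjured cells that share was 72.6%. For class I genes it was 29.3% in injured and 25.8% in uninjured cells.

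**Figure D2:**
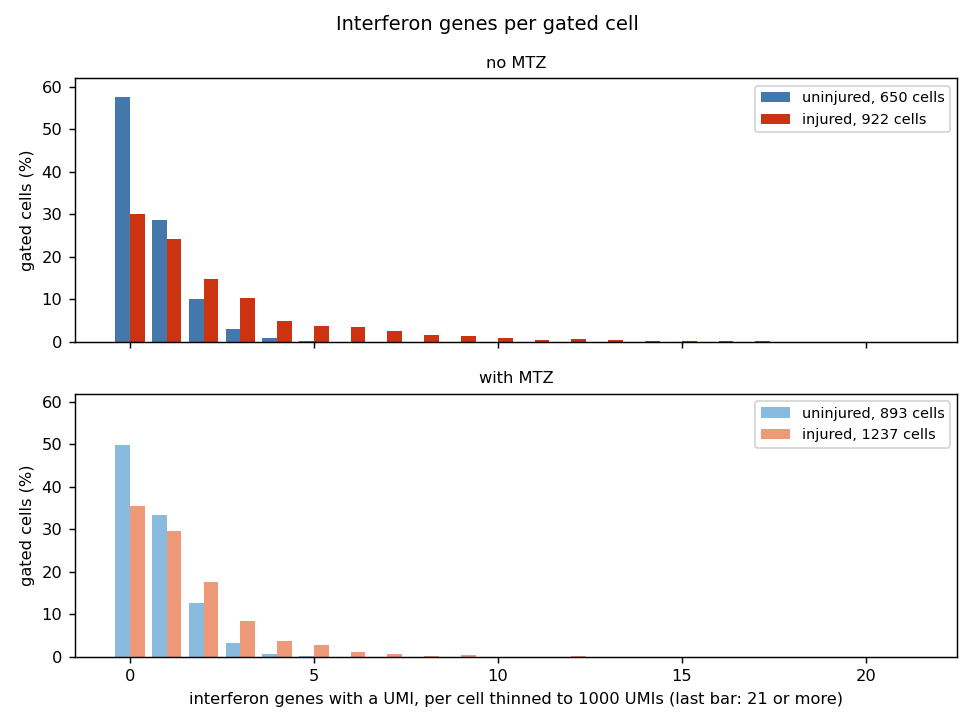
Histograms give the percentage of thinned gated cells (y axis) by the number of interferon genes with a UMI in the cell (x axis), with the uninjured and injured libraries in the upper panel and the 2 libraries with MTZ in the lower panel. Injured cells extend to 10 or more genes in the upper panel, where 30.7% of injured and 3.85% of uninjured cells have at least 3.

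The gene ranked first among the increases, by the lower bound of its interval, was c7b, which encodes a component of the terminal complement complex. It had 5 UMIs in 5 uninjured cells and 1455 UMIs in 130 injured cells, or 1.84 and 323 CPM, a log2 ratio of 7.46 (6.23 to 9.08). After thinning it was found in 0 of 650 uninjured cells, in 7.38% of injured cells (68 of 922) and in 0% of neurons. Of these c7b-positive cells 70.6% had at least 3 interferon genes, against 27.5% of the other injured cells. Only 4 complement genes were measured. Besides c7b, the early component c4b rose with a log2 ratio of 3.36, whereas masp1 and c1qbp had log2 ratios of 0.45 and −0.11.

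Chemokines divided. Of 9 measured cytokine and chemokine genes 3 rose and 0 fell. The neutrophil-attracting cxcl18b stood at 287 CPM in uninjured and 1440.3 CPM in injured cells, and in 11.5% and 33.8% of thinned cells (neurons 0.637%), with a log2 ratio of 2.33 (2.22 to 2.44). The chemokine gene ccl19a.1 rose from 6.25 to 407 CPM and cxcl8a from 1.84 to 38.4 CPM, but 14.9% and 16.8% of their injured UMIs lay in 1 cell. In all cells past the filters, without the gate, the ratio of cxcl8a had the opposite sign, at −0.76. The homeostatic chemokines cxcl12a (1419.6 and 1108 CPM) and cxcl14 (384 and 204 CPM) had log2 ratios of −0.36 and −0.91 and passed no threshold.

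Of 16 measured genes of TNF receptor and NF-kB signalling 7 rose and 0 fell, with a median log2 ratio of 0.89, or 1.07 above that of all genes. The death receptor tnfrsf21 rose from 16.2 to 93.1 CPM. The inhibitor nfkbiaa, itself an NF-kB target, rose from 29.8 to 165 CPM, and the non-canonical subunits nfkb2 and relb from 22.4 to 71.3 CPM and from 37.5 to 111 CPM. The largest ratio of the list, that of tnfrsf9a (log2 ratio 5.07), rested on 16 cells, 1 of which held 47.1% of the UMIs.

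In the gp130 and STAT3 pathway, through which cytokines of the interleukin-6 family act, 7 of 16 measured genes rose and 0 fell. The median log2 ratio was 0.38, or 0.55 above that of all genes, and the summed level hardly differed, at 16221.5 and 16517.3 CPM. Ligands of the pathway were found in few cells. The cytokine clcf1 had 0 UMIs in uninjured cells and 63 in 13 injured cells, at least 12.7-fold higher against the floor, and its partner crlf1a went from 2.57 to 16.4 CPM in 6 and 30 cells. Single cells held 23.8% and 17.6% of those injured UMIs. Both genes had too few UMIs for a ratio once cells carrying markers of other types were left out. The receptor subunit lifrb rose from 16.2 to 58.9 CPM, while the shared subunit il6st had a log2 ratio of 0.42 (106 and 142 CPM). Downstream, the feedback inhibitor socs3b rose from 176 to 586 CPM, a log2 ratio of 1.74 (1.59 to 1.88). The transcription factor stat3 itself stood at 36.4 and 75.1 CPM, a log2 ratio of 1.05 (0.72 to 1.38), and dropped below 2-fold, to 0.74, without cells of 8000 UMIs or more.

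Of 21 measured genes known from zebrafish retina, fin or brain regeneration 6 rose and 1 fell. The RNA-binding protein gene lin28a, required in zebrafish for the reprogramming of retinal Müller glia, had 1 UMI in uninjured cells and 527 in 39 injured cells, a log2 ratio of 8.32 (5.83 to 13.62). It was found in 2.06% of thinned injured cells (19 of 922) and in 0 of 650 uninjured cells. The heparin-binding EGF-like factor gene hbegfa rose from 163 to 905 CPM (log2 ratio 2.47, 2.33 to 2.62), and from 5.69% to 19.1% of thinned cells. The metalloproteinase inhibitor gene timp2b rose from 31.6 to 261 CPM and the matricellular gene ccn2a from 20.9 to 145 CPM. For the metalloproteinase gene mmp9, at 0.367 and 81.3 CPM, 25.1% of the injured UMIs lay in 1 cell. It is also a marker of neutrophils, whose list of 8 genes had 4 UMIs in uninjured and 383 in injured cells, mmp9 included. That list summed to 1.47 and 85.1 CPM, so mmp9 itself made up most of the injured sum. In both libraries 0 gated cells carried at least 3 neutrophil markers. The part of neutrophils in the result was not tested. The gene ascl1a, a proneural factor upstream of lin28a in the injured retina, stood at 52.2 and 55.1 CPM, a log2 ratio of 0.08 (−0.23 to 0.39). That value depended on the gate, at 0.96 with fabp7a at 1% or more and 0.72 without a gate. None of the 19 lin28a-positive thinned cells had an ascl1a UMI, against 2.99% of the other injured cells, a difference not detectable with so few cells.

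The cells with lin28a were large and shared further genes. Their median was 10904 UMIs before thinning, against 4007 for the lin28a-negative injured cells, and 16 of the 19 (84.2%) had an hbegfa UMI, against 17.7% of the others. Summed her and hey genes stood at 4211 CPM in the lin28a-positive cells and at 9289 CPM in the other injured cells. Cells with 8000 UMIs or more made up 8.64% of uninjured and 14.5% of injured cells and held 21.7% and 34.5% of all UMIs. They held 92.4% of the injured UMIs of lin28a, 71.6% of those of nppc and 65.5% of those of hbegfa. In cells of under 2000 UMIs the log2 ratio of hbegfa was −0.36 (−1.03 to 0.31), and at 8000 or more it was 3.90 (3.55 to 4.27). Other measures changed at every size. Summed interferon genes had log2 ratios of 1.95, 2.51, 2.33 and 2.58 from the smallest to the largest cells, and summed cholesterol enzymes −1.72, −2.0, −1.47 and −2.56. The part of cell size in the ratios of lin28a, timp2b, nppc, c7b, tnfrsf21 and hbegfa was not tested.

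**Figure D3:**
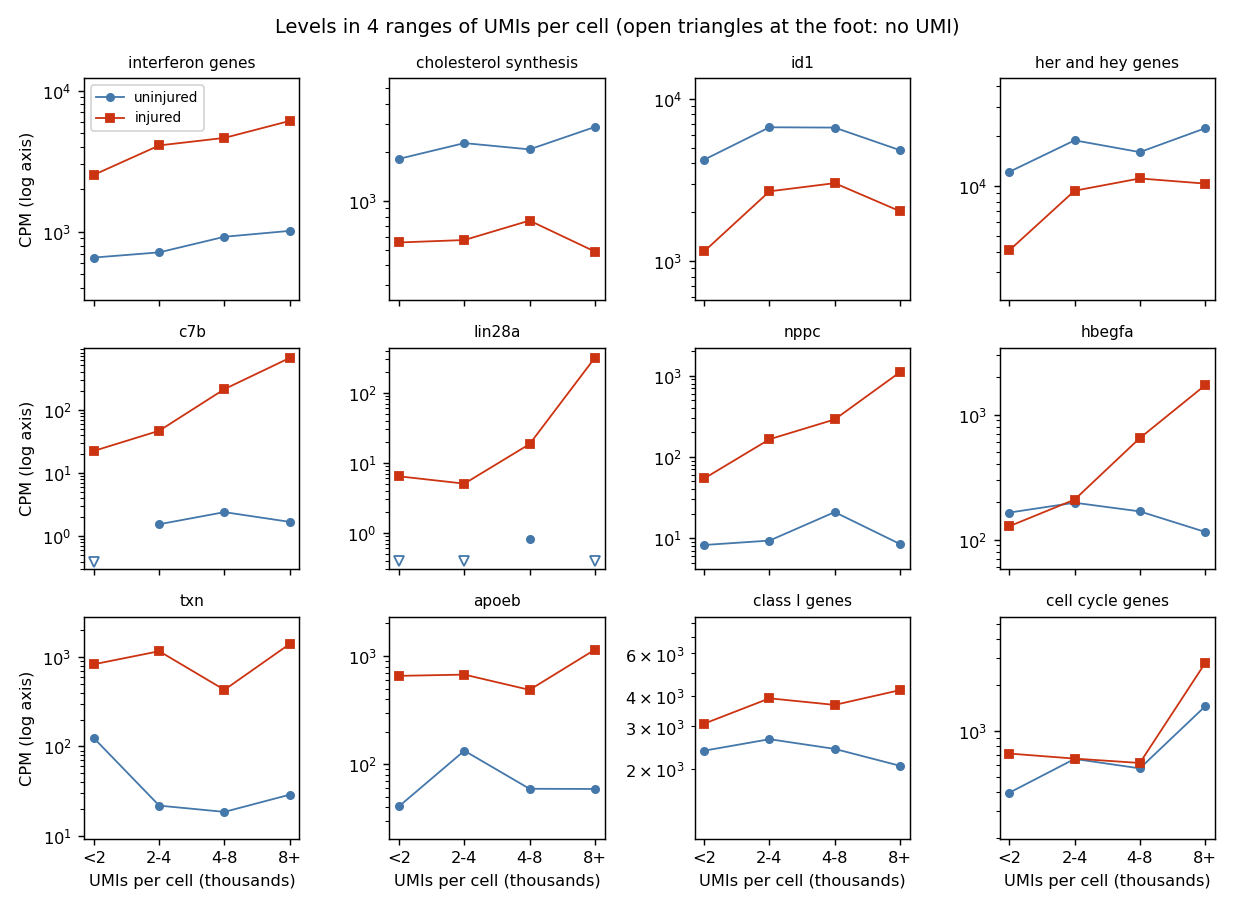
Panels give the CPM (log y axis) of 12 genes or summed gene lists in gated cells of the uninjured and injured libraries, in 4 ranges of UMIs per cell (x axis: under 2000, 2000 to 4000, 4000 to 8000, and 8000 or more), with open triangles where no UMI was found. The interferon and cholesterol panels differ between libraries in every range, whereas hbegfa differs only from 4000 UMIs up. The cell cycle panel leaves aside 6 broadly expressed genes.

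Peptide hormone and redox genes stood among the strongest increases. The C-type natriuretic peptide gene nppc went from 14.3 to 532 CPM (log2 ratio 5.21, 4.76 to 5.71), found in 17 uninjured and 100 injured cells. Its relative nppb, which was named after its values were seen, had 1 UMI and 199 UMIs, the latter in 20 cells of which 1 held 15.6%. In thinned cells of the injured library nppc stood at 10.8 CPM in those without an interferon gene UMI. It stood at 133 CPM in those with 1 or 2 genes and 873 CPM in those with 3 or more. For c7b the same classes had 18, 85.9 and 459 CPM. The classes also differed in size, with medians of 3119, 4361 and 4912 UMIs per cell before thinning. The part of cell size in these levels was not tested. The redox protein gene txn, thioredoxin, rose from 30.9 to 922 CPM (log2 ratio 4.90, 4.59 to 5.23) and from 2.46% to 21.8% of thinned cells, with 2.55% in neurons. In the list of oxidative stress and iron genes, where txn belongs, 4 of 29 measured genes rose and 1 fell. The peroxidase gene prdx1 rose from 98.5 to 338 CPM and the haem oxygenase gene hmox1a from 99.2 to 232 CPM, with 15.8% of its injured UMIs in 1 cell. The transferrin receptor gene tfr1b fell from 16.9 to 6.66 CPM. The median log2 ratio of this list was 0.02, so most of its members lay near a ratio of 1. Also among the 12 strongest increases were CABZ01073795.1 (7.35 and 392 CPM), si:ch211-183d5.2 (3.67 and 133 CPM) and si:dkeyp-9d4.2 (0.735 and 48.6 CPM), to which the files give no name.

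Of 26 genes of reactive glia and their cytoskeleton 7 rose and 0 fell, and 25 lay above the median of all genes. Annexins, which bind membranes in the presence of calcium, led the list, anxa2a from 43.4 to 242 CPM and anxa5b from 11 to 38.9 CPM, log2 ratios of 2.48 and 1.82. For anxa1a (6.61 and 28.7 CPM) 19.4% of the injured UMIs lay in 1 cell. It had too few UMIs for a ratio without cells carrying 3 or more markers of another type. The intermediate filament gene vim rose from 362 to 837 CPM, a log2 ratio of 1.21 (1.11 to 1.31), and from 26.8% to 44.0% of thinned cells. The moesin gene msna (387 and 813 CPM) and the calponin gene cnn2 (215 and 434 CPM) sat close to the line, at 1.07 and 1.02. Without cells carrying 3 or more markers of another type, vim, msna and cnn2 had log2 ratios of 0.96, 0.99 and 0.91. The median log2 ratio of the list was 0.51, and 19 of its 26 members passed no threshold. With gfap at 0.08 (−0.01 to 0.17), this radial glial filament gene showed no such change among cells that were sorted for activity of its promoter.

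Cholesterol synthesis genes were lower throughout the pathway. In the mevalonate branch, which makes the isoprenoid units, 8 of 10 measured enzymes fell and 0 rose (median log2 ratio −1.76). In the branch from squalene to cholesterol 13 of 14 fell and 0 rose (median −2.37, or −2.20 relative to all genes). The summed level of both branches went from 2282 to 617 CPM. Both counts stayed at 8 and 13 with TMM factors.

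In pathway order, acat2, which makes acetoacetyl-CoA, stood at 129 CPM in uninjured and 44.4 CPM in injured cells. The synthase gene hmgcs1 fell from 271 to 45.8 CPM, a log2 ratio of −2.57 (−2.80 to −2.34), and from 12.2% to 2.71% of thinned cells. HMG-CoA reductase, the rate-limiting enzyme, has 2 genes here, of which hmgcra fell from 209 to 84.4 CPM and hmgcrb, at 25 and 15.5 CPM, had a log2 ratio of −0.68. The kinases and the decarboxylase followed, with log2 ratios of −2.73 for mvk, −2.69 for pmvk and −2.44 for mvda. Further on, idi1 fell from 66.9 to 16.9 CPM and fdps from 204 to 75.5 CPM. The gene ggps1, whose product leads to geranylgeranyl diphosphate and so away from sterols, was the exception, at 24.3 and 26.0 CPM and a log2 ratio of 0.10 (−0.35 to 0.56).

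From squalene on, fdft1 fell from 15.4 to 2.67 CPM and the epoxidase gene sqlea from 29.8 to 3.55 CPM, the latter with the lowest log2 ratio of the pathway, −3.07 (−3.94 to −2.28). The cyclase gene lss fell from 28.7 to 5.11 CPM and the demethylase gene cyp51 from 208 to 37.8 CPM. Genes that remove the methyl groups fell together, msmo1 from 358 to 84.9 CPM, nsdhl from 47.0 to 7.11 CPM and hsd17b7 from 132 to 35.1 CPM. The last steps showed ratios of −2.69 for ebp, −2.29 for sc5d and −1.67 for dhcr7 on the log2 scale. For cyb5r2, a cytochrome b5 reductase, 88 UMIs in uninjured and 19 in injured cells gave −2.94 (−3.74 to −2.21). The sterol reductase gene lbr, whose product is also a receptor for lamin B in the nuclear envelope, was at 29.4 and 21.1 CPM, a log2 ratio of −0.48.

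**Figure D4:**
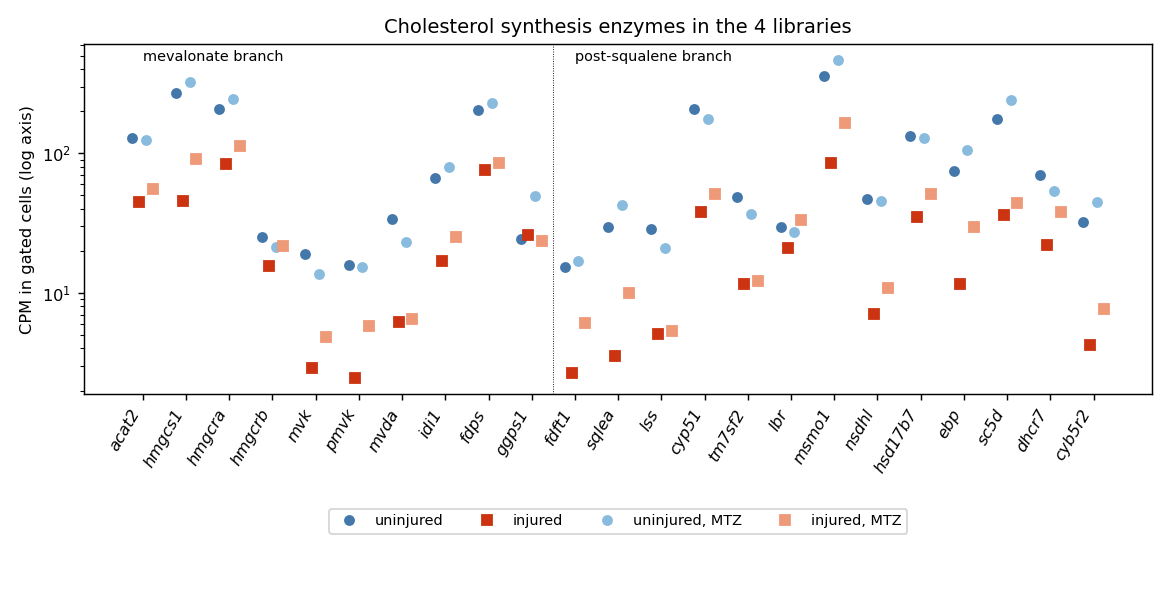
Points give the CPM (log y axis) of 23 of the 24 measured cholesterol synthesis enzymes in gated cells, in pathway order along the x axis, for the uninjured and injured libraries and for the 2 libraries with MTZ. The injured library lies below the uninjured library at every enzyme except ggps1.

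The decrease was present in each class of cells formed by the number of interferon genes after thinning. At least 3 cholesterol genes were found in 24.8% of uninjured and 4.23% of injured thinned cells, with 1.91% in neurons. After thinning, injured cells without any interferon gene UMI had 799 CPM of cholesterol enzymes (697 to 911). Those with 1 or 2 such genes had 704 CPM (620 to 796), and those with 3 or more 396 CPM (326 to 476). In uninjured cells the 3 classes had 2062, 2223 and 1840 CPM. Injured cells without an interferon gene UMI after thinning thus stood below all 3 classes of uninjured cells. Before thinning 829 of the 960 injured cells had at least 1 such gene, so part of the 278 cells in that class did too. The classes therefore cannot separate the decrease from the interferon genes.

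Genes that control sterol levels moved both ways, with 4 of 21 measured genes higher and 7 lower. The master regulator srebf2 went from 119 to 55.5 CPM, a log2 ratio of −1.10 (−1.35 to −0.86), which was −0.91 with TMM factors. Its targets insig1 (776 and 287 CPM) and stard4 (22.4 and 8.0 CPM) fell, as did the lipase gene lipg, from 460.1 to 126 CPM, and the fatty acid elongase gene elovl5, from 69.1 to 19.5 CPM. The LDL receptor gene ldlrb had 33 and 17 UMIs, a log2 ratio of −1.68 (−2.62 to −0.80). Genes of efflux rose instead. The transporter genes abca1a and abca1b went from 69.5 to 173 CPM and from 4.78 to 12.9 CPM, and apolipoprotein E, apoeb, from 75.3 to 757 CPM (log2 ratio 3.33, 3.13 to 3.54) and from 5.38% to 16.6% of thinned cells, with 0.637% in neurons. Levels of apoeb in injured cells were 144, 294 and 1558 CPM in the 3 interferon classes, which also differed in median UMIs per cell, as given above. Microglia also express apoeb, and without cells carrying markers of another type its log2 ratio was 3.56. Outside the lists, tmem97, which encodes a sterol-regulated membrane protein, fell from 153 to 30.9 CPM, the citrate transporter gene slc13a5a from 424 to 112 CPM and from 30.0% to 9.0% of thinned cells, and zgc:114046 fell as well.

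Identity genes of radial glia were mostly lower but few passed 2-fold. Of 22 measured, 2 fell and 0 rose, 19 lay below a ratio of 1, and the median log2 ratio was −0.60, or −0.43 relative to all genes. The gap junction gene cx43 stood at 5121 and 2539 CPM, a log2 ratio of −1.01 (−1.05 to −0.98), and its share of thinned cells went from 87.5% to 65.7%. Among 16 transport and metabolism genes 3 fell and 0 rose, namely cx43, the water channel aqp1a.1 (734 and 363 CPM) and the GABA transporter slc6a11b (167 and 73.7 CPM). With TMM factors 0 of these 3 passed 2-fold, at −0.82, −0.83 and −0.99. The sodium pump gene atp1a1b stood at 5760.3 and 2886 CPM, glutamine synthetase glula at 16759.5 and 9809 CPM, and the glutamate transporter slc1a2b at 13850.2 and 8865 CPM, log2 ratios of −1.0, −0.77 and −0.64, just under or short of the line. The immature neuron and ciliated markers noted above were higher in the same library.

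Notch receptors and ligands had 0 of 16 measured genes called either way, with log2 ratios from −0.98 to 0.63 and a median of −0.17. Their summed level went from 1696 to 1377 CPM. Their her and hey targets, repressors that keep radial glia undifferentiated, had 3 of 19 lower and 0 higher, a median of −0.75, and a summed level of 17651 and 10013 CPM. The genes her4.2 (4646 and 2210.4 CPM) and her4.4 (1177 and 572 CPM) had log2 ratios of −1.07 and −1.04, which were −0.88 and −0.85 with TMM factors. Their copies lie close in sequence, so single values are uncertain. The gene heyl, at 25.4 and 9.11 CPM, had −1.48 (−2.07 to −0.90), and her6, at 3446 and 1741 CPM, had −0.98. With TMM factors the list had 2 genes higher and 1 lower.

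In the BMP and TGF-beta list 8 of 25 measured genes fell and 0 rose, 5 of 25 with TMM factors. The Id genes, transcriptional targets of BMP that restrain differentiation, changed most in level. Of these, id1 fell from 6036 to 2489 CPM (log2 ratio −1.28, −1.31 to −1.24), id2b from 2193 to 633 CPM (−1.79, −1.86 to −1.73), and id3 from 512 to 199 CPM (−1.36). In the 4 ranges of cell size id1 had ratios of −1.88, −1.31, −1.14 and −1.25, so it was lower at every size. The BMP antagonists chrd (22.0 and 6.89 CPM) and nog3 (108 and 51.5 CPM) and the receptor bmpr1ba (30.9 and 13.8 CPM) fell as well. With TMM factors nog3 and bmpr1ba missed 2-fold, at −0.88 and −0.97.

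Wnt pathway genes were lower at 9 of 29 measured members and higher at 1, against 5 and 2 with TMM factors. The receptor fzd10 fell from 65.4 to 21.5 CPM (log2 ratio −1.60, −1.97 to −1.24), and the secreted regulators rspo3 and sfrp5 from 17.6 to 6.0 CPM and from 257 to 119 CPM. The ligands wnt8b (44 and 20 UMIs) and wnt7ba (45 and 29 UMIs) had ratios of −1.86 and −1.36. The single higher member was ctnnb2, a beta-catenin gene, from 27.2 to 70.9 CPM. Among growth factor genes 3 of 32 rose and 4 fell. The rises were those of nppc and hbegfa, given above, and of igfbp1a, from 75.3 to 169 CPM with over 10% of UMIs in 1 cell and a log2 ratio of 0.25, in place of 1.17, without cells of 8000 UMIs or more. The ligand fgf8b fell from 27.2 to 6.89 CPM, its receptor gene fgfr4 from 43.7 to 16.9 CPM, the FGF target etv5b from 80.1 to 37.1 CPM and vegfab from 55.5 to 25.1 CPM. With TMM factors etv5b and vegfab missed 2-fold, at −0.92 and −0.95.

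Cell cycle genes were higher, with a count that depended on the cells admitted. Of 31 S phase genes 10 rose and 0 fell, and of 15 genes of G2 and mitosis 10 rose and 0 fell, with medians of 0.86 and 1.23. The ribonucleotide reductase gene rrm2 went from 37.5 to 121 CPM in 25 and 104 cells, a log2 ratio of 1.69 (1.39 to 2.01). The mitotic kinase cdk1 had 4 and 49 UMIs, and the proliferation antigen mki67 had 8 and 82 UMIs, in 4 and 27 cells. The replication clamp pcna stood at 98.1 and 164 CPM, a log2 ratio of 0.74 (0.54 to 0.95). For ube2c 40.5% of the injured UMIs lay in 1 cell. Without cells of 8000 UMIs or more, 2 cell cycle genes were past 2-fold higher, and mcm5, which is part of the replicative helicase, had a ratio of −0.13 in place of 1.06. Without the fabp7a gate 45 genes were higher.

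Thinned cells with at least 3 cell cycle genes, leaving aside 6 that are broadly expressed, made up 3.38% of uninjured (22 of 650, 2.13 to 5.08%) and 7.05% of injured cells (65 of 922, 5.48 to 8.90%), with 0.637% in neurons. With those 6 genes included, 50.6% and 54.4% of cells had at least 2 genes, at or below the 63.1% of neurons, so that share reads as background. Over the 4 size ranges the summed level without those 6 genes had log2 ratios of 0.85, 0.01, 0.12 and 0.94. Among 16 inhibitors of the cycle 1 rose and 1 fell. The stress gene gadd45bb went from 241 to 653 CPM and the CDK inhibitor cdkn1ba from 59.2 to 24.2 CPM.

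Of 14 measured neurogenic factors 2 rose and 2 fell, with a median log2 ratio of −0.00. The proneural gene ascl1b rose from 10.7 to 36.7 CPM (log2 ratio 1.78, 1.21 to 2.40) and the tubulin gene tubb5 from 29.8 to 69.1 CPM, the latter with over 10% of UMIs in 1 cell. The subpallial factor gsx2 (329.6 and 160.4 CPM) and sox11a (157 and 78.4 CPM) had log2 ratios of −1.04 and −1.0, and −0.85 and −0.81 with TMM factors. Without the gate sox11a had −0.65.

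Of 82 measured cytosolic ribosomal protein genes 13 rose and 0 fell, yet all 82 lay above the median of all genes. The median share of a cell's UMIs in them was 7.36% in uninjured and 13.7% in injured cells. In each of the 4 size ranges the injured median was higher, for instance 12.0% and 19% in cells of under 2000 UMIs. Subunits of oxidative phosphorylation, by comparison, had 0 of 82 higher and 1 lower, with summed levels of 25299 and 25240 CPM.

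The remaining groups gave few calls. Immediate early genes, which respond within minutes to stimulation and to dissociation, had 0 of 35 higher and 2 lower, myca (164 and 67.5 CPM) and per1a (55.5 and 27.3 CPM). Of 28 heat shock chaperones 1 rose, the co-chaperone bag3, from 134 to 560.4 CPM (log2 ratio 2.07, 1.91 to 2.23), and 0 fell. Glycolysis and hypoxia genes had 2 of 31 higher, the lactate exporter slc16a3 (36.0 and 143 CPM) and ndrg1a (5 and 66 UMIs). In retinoid handling aldh1a3, which makes retinoic acid, went from 47.4 to 19.5 CPM and cyp26c1, which degrades it, from 90.8 to 38 CPM, 2 of 3 lower genes among 14. Without cells of 8000 UMIs or more cyp26c1 had −0.25 in place of −1.26, and with cells weighted equally −0.79. In this list rdh10a alone was higher, with a log2 ratio of 1.04. Extracellular matrix genes had 3 of 33 higher, mmp9, timp2b and tnc, and 2 lower, ncam2 and sparcl1. With TMM factors per1a and ncam2 missed 2-fold, at −0.83 each. Of 28 axon guidance genes 2 rose, among them the netrin gene ntn1b, and 4 fell, among them draxin (73.5 and 25.5 CPM) and efnb2a (1013 and 504 CPM). With TMM factors that count was 4 higher and 2 lower. Over 10% of the injured UMIs lay in 1 cell also for cdk1, mki67, ndrg1a, rdh10a, draxin, ntn1b, zgc:114046, sqlea, mvk, fdft1, mvda, ldlrb, wnt8b and wnt7ba.

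**Figure D5:**
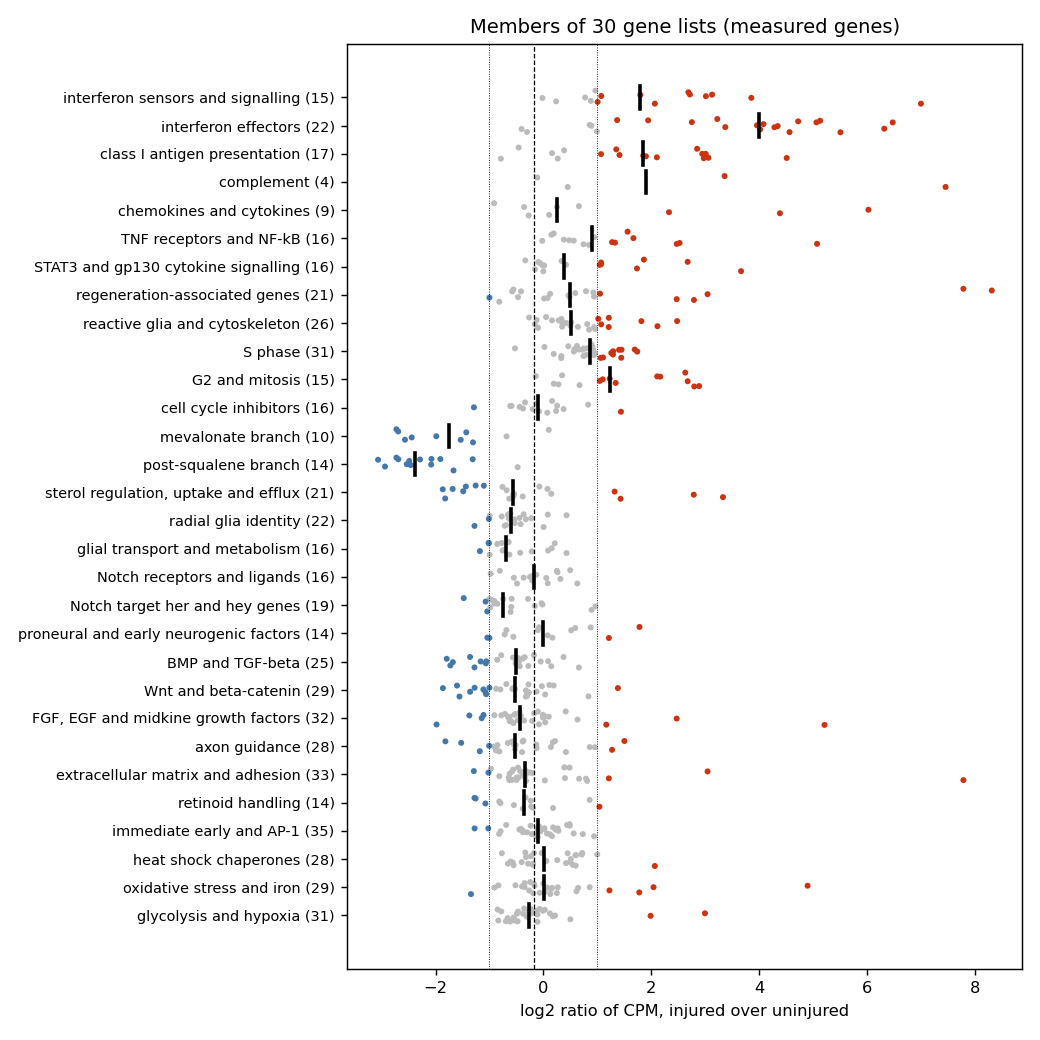
Points give the log2 CPM ratio (x axis, injured over uninjured) of the measured members of 30 gene lists (rows) in gated cells, red where at least 2-fold higher and blue where at least 2-fold lower. The black bar is each list's median and the dashed line the median of all genes, −0.17. The interferon effectors have the highest median, 3.99, and the post-squalene branch the lowest, −2.37.

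The 2 libraries with MTZ gave another lesion comparison that shares no library with the first. MTZ, the nitroreductase transgene and the pool of fish cannot be told apart, and the difference between the 2 comparisons was not tested. There 471 of 9736 measured genes (4.84%) were at least 2-fold higher and 429 (4.41%) at least 2-fold lower, in 1254 uninjured and 1296 injured gated cells. Of the interferon and class I genes 31 were higher and 1 lower, and the summed level went from 3288 to 5930 CPM. Cells with at least 3 interferon genes made up 4.03% and 17.4% after thinning. Of the cholesterol enzymes 21 were lower, 9 in the mevalonate branch and 12 after squalene, with a summed level of 2593 and 905 CPM. For lin28a the log2 ratio with MTZ, 7.49, lay inside the counting interval of that without. That interval is wide because the uninjured library without MTZ held 1 UMI, so it cannot show that the ratios were alike. The log2 ratio was 2.47 against 4.90 for txn with and without MTZ, 0.77 against 5.21 for nppc, and 1.23 against 3.33 for apoeb. With MTZ c7b stood at 3.14 CPM in uninjured and 57.9 CPM in injured cells. For nppc the uninjured library with MTZ stood at 49.7 CPM and the injured library at 84.7 CPM. The class II gene cd74a, at 22.9 and 24.9 CPM with MTZ, had a log2 ratio of 0.12. The microglial marker list of 18 genes, which holds cd74a, summed to 164 CPM in uninjured and 56.0 CPM in injured gated cells with MTZ. Of its genes 1 and 9 were at 0 there. The part of microglial RNA in the ratios with MTZ was not tested. Cells with fabp7a under 0.1% of UMIs and at least 3 microglial markers numbered 7 and 37 in those libraries. Genes of the transport list also had other values, cx43 at −0.23 with MTZ against −1.01 without, and aqp1a.1 at 0.13 against −1.02. In the BMP and TGF-beta list 1 of 25 genes measured in both comparisons was higher with MTZ and 1 lower. In the Wnt list 2 of 29 were higher and 1 lower, with a median log2 ratio of 0.17. Of ribosomal protein genes 0 of 82 were higher and 2 lower, and of neurogenic factors 4 of 14 were higher and 0 lower. Of the her and hey genes 3 of 19 were lower and 0 higher. Of the cell cycle genes 25 of 46 were higher and 0 lower.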

How the data were processed

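UMI counts per gene and cell were deposited by the authors as 1 filtered matrix per library, raw and not normalized. They were made with Cell Ranger, version 3.1.0 per the submitters' processing notes and 4.0.0 per the file headers. UMIs count molecules, and intervals and floors cover counting error only. Of 25107 features, rows sharing a symbol were summed, giving 24435 symbols. The transgenes are not among the features used here.

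Cells were filtered and gated as stated in the report. UMIs were summed per gene and library and scaled to CPM. Ratios have exact conditional binomial 95% intervals, shares exact Clopper-Pearson intervals. A gene was called at 2-fold with at least 50 UMIs over both libraries, a group at 0 being set to a floor of 3 counts. For shares, each cell was thinned to 1000 UMIs, leaving out shallower cells (650 of 683 uninjured and 922 of 960 injured cells remained). Neurons for the background were 169 cells pooled over the 4 libraries, with fabp7a under 0.1% of UMIs and at least 3 neuron markers. Their median was 3296 UMIs, and 157 of them could be thinned. No doublets were removed. An alternative left out the cells with the highest Scrublet scores (scanpy 1.11.5), 4 uninjured and 10 injured gated cells. Their number was set beforehand at 0.8% per 1000 barcodes. TMM factors came from edgeR 4.0.16 and median-of-ratios factors from DESeq2 1.42.0 in R 4.3.3, as scaling only. Other steps used python 3.11.15, numpy 2.4.6 and scipy 1.17.1, and the ratio code was tested on simulated data.

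Named genes were the 12 with the highest lower bound and the 12 with the lowest upper bound of the ratio, among called genes with at least 100 UMIs, at least 20 cells and at most 10% of UMIs in 1 cell, plus members of the lists, of which more than 4 are named in some lists. Those further members were chosen after their values were seen. The members and the 30 lists (1037 names, 35 not matched) were chosen with earlier results of these data known. 3' counts were not compared between genes. A few list members are not reported here.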

Additional observations from a re-analysis of the deposited data

Results flagged for a closer look

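The lesion ratio of 3 genes passed 2-fold in opposite directions without and with MTZ, and the difference was not tested. The apolipoprotein gene apoc1 had a log2 ratio of 2.79 without MTZ (7 and 80 UMIs) and −5.11 with MTZ (180 and 9 UMIs), with 21.2% of the injured UMIs without MTZ in 1 cell. The ephrin gene efnb2a had −1.01 without MTZ (2756 and 2271 UMIs) and 1.06 with MTZ (1091 and 3921 UMIs). Its ratio without MTZ was under 2-fold with TMM factors, at −0.82, and without cells carrying markers of other types, at −0.94. The ferritin gene fthl28 had 2.04 without MTZ (27 and 184 UMIs) and −1.40 with MTZ (101 and 66 UMIs), with 69.0% of the injured UMIs without MTZ in 1 cell. Without cells carrying markers of other types that ratio was 0.24, and without cells of 8000 UMIs or more 0.37.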

How the results depend on the processing

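No paired analysis was possible because each group is 1 library, and no library could be left out. Alternatives leaving out large cells or cells with 3 cell cycle genes, taking ribosomal protein genes out of the total, and dividing cells into ranges were chosen after seeing the data. The 459 higher and 437 lower genes became 73 and 71 when cells with at least 2 cell cycle genes were left out, which left 110 and 109 cells and 1084 genes. They became 817 and 854 with at least 20 UMIs, 189 and 140 with at least 200 UMIs, and 1492 and 3243 with no minimum. Lower genes numbered 243 with TMM factors, 244 with median of ratios and 160 with each gene counted once per cell. Higher genes numbered 300 without cells of 8000 UMIs or more. The 39 interferon and class I genes became 5 without cells with at least 2 cell cycle genes and 22 with at least 200 UMIs. The 21 cholesterol enzymes became 2 and 11 under the same alternatives. The 20 cell cycle genes became 41 with a gate of 0.25%, 45 with no gate, 13 with a gfap UMI required, 12 without cells carrying markers of other types, 1 without cells with at least 3 cell cycle genes, 0 without those with at least 2, 2 without cells of 8000 UMIs or more, 5 with at least 200 UMIs and 36 with no minimum. Settings that leave out cells by their cell cycle genes choose cells by the genes then counted. The fall of the cell cycle count to 1 and 0 is thus partly set by the choice. For the other changes the cause was not tested beyond the fewer cells or genes these settings leave.

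The share of uninjured cells with at least 3 interferon genes, 3.85%, became 15.6% thinned to 2000 UMIs, 36.3% without thinning, 13.8% with 1 gene fewer and 0.154% with 2 genes more. In injured cells 30.7% became 50.7%, 62.5%, 45.6% and 15.7%, and 33.9% under the stricter filter on detected genes and mitochondrial share. For at least 2 cell cycle genes the same settings turned 50.6% of uninjured cells into 76.4%, 83.9%, 85.5% and 6.77%, and 54.4% of injured cells into 78.3%, 88.6%, 86.3% and 16.2%. Signs reversed for the relative median of G2 and mitosis genes, −0.31, and tgif1, −0.11, without cells with at least 2 cell cycle genes, for cxcl8a, −0.76, without the gate, for fthl28, −0.19, with cells weighted equally, and for mcm5, −0.13, without cells of 8000 UMIs or more. For the G2 and mitosis genes, the cells left out were chosen in part by these same genes. Of 150 followed genes past 2-fold, 146 kept their direction in every alternative that gave a value and 86 stayed past 2-fold in all of them.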
